A study of Mus musculus with 3 samples.

Results

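The genes described here encode 7 transcription factors of 3 families, out of 15122 genes measured in the mouse forelimb bud: Tfap2a, Tfap2b and Tfap2c of the TFAP2 (AP-2) family, Bcl11a and Bcl11b of the BCL11 family, and Nfia and Nfib of the nuclear factor I (NFI) family. They were selected on measured values of these data, their levels by stage and in ectodermal cells, so their levels by class, library, stage and ectodermal patterning state are a description and carry no test. All 7 were measured. Single-cell libraries were made from wild-type forelimb buds, 1 library for each of 3 groups: strain c57bl6.J at E10.5 (B6_E10.5), strain 129S6.sv at E9.5 (129_E9.5) and strain c57bl6.J at E9.5 (B6_E9.5). The cells were dissociated with trypsin and run as 1 droplet reaction per strain and stage, and how many embryos went into each is not stated. There were no replicates of a group, so a difference between libraries can be a difference of stage, strain, embryos or reaction, which cannot be told apart.

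TFAP2 proteins bind DNA as dimers through a shared carboxy-terminal domain and act in surface ectoderm and in the neural crest that arises at its border. Tfap2a and Tfap2c are best known from early ectoderm and epidermis, and Tfap2b from limb, face, kidney and neural crest derivatives. BCL11 proteins are zinc finger repressors that work with the NuRD and SWI/SNF chromatin complexes. Bcl11b (also called Ctip2) is known from skin, tooth and T cells, and Bcl11a from neurons, B cells and the silencing of embryonic globin genes. NFI proteins bind a palindromic TTGGC element and are known from late steps of development in lung, brain, cartilage and muscle. In limb ectoderm, Wnt7a marks the dorsal face, En1 the ventral face and Fgf8 the apical ectodermal ridge, whose signals drive outgrowth.

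On the mm10 genome (GENCODE M21), the 7 protein-coding genes lie at chr13:40715302-40738376 on the minus strand (Tfap2a, ENSMUSG00000021359), chr1:19208914-19238576 on the plus strand (Tfap2b, ENSMUSG00000025927), chr2:172549593-172558622 on the plus strand (Tfap2c, ENSMUSG00000028640), chr11:24078056-24174123 on the plus strand (Bcl11a, ENSMUSG00000000861), chr12:107910403-108003602 on the minus strand (Bcl11b, ENSMUSG00000048251), chr4:97772734-98118874 on the plus strand (Nfia, ENSMUSG00000028565) and chr4:82290173-82705750 on the minus strand (Nfib, ENSMUSG00000008575). RefSeq promoter windows, from 250 bases before to 50 after a start site, were at hand for 5 of the 7 genes, and Tfap2c and Nfib are only named. Those of Tfap2b and Bcl11b are shown because these genes had the highest ectodermal stage ratios of the 7 and because only the Bcl11b window held a TFAP2 motif. The capitals in the Bcl11b window mark that match, to GCCNNNGGC, which starts 27 bases before the start site, and the Tfap2b window holds no match. The windows are from build GRCm38.p6, at chr1:19211804-19212103 on the plus strand for Tfap2b and chr12:108003365-108003664 on the minus strand for Bcl11b, both written 5′ to 3′ along the gene.
Tfap2b: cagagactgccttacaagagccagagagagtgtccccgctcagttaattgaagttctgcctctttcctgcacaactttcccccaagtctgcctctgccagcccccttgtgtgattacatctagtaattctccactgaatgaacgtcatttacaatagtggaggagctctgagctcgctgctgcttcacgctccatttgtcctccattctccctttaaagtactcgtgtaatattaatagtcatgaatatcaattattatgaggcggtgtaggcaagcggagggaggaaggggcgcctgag
Bcl11b: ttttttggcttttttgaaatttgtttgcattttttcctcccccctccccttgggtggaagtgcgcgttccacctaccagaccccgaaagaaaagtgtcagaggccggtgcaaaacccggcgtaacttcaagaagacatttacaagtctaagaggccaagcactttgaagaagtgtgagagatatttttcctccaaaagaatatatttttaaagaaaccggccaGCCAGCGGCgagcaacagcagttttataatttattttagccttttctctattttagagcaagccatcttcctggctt

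The motif, searched on both strands, was in 1 of the 6 windows of these genes (Tfap2a has 2) and in 16.6% of 32851 mouse promoter windows of the same length. The full NFI palindrome, TTGGC and GCCAA with 5 bases between them, was in 0 of the 6 windows and in 0.0365% of all windows. A match is a run of letters in a window, not a bound site.

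The 5 deposited clusters carried the markers of mesenchyme (Prrx1, Tbx5), ectoderm (Epcam, Wnt6), muscle progenitors, endothelium and erythroid cells. Of the 10 leading genes of the ectodermal cluster, 7 were ectoderm markers and 0 belonged to any other marker list. Ectoderm had 1026 cells in B6_E10.5, 1253 in 129_E9.5 and 1009 in B6_E9.5, with median depths of 5731.5, 4747 and 10410 UMIs, and mesenchyme had 15325, 9233 and 9678 cells, with median depths of 5422, 7463 and 8067 UMIs. Across all cells the libraries held 119942504, 93029510 and 124388358 UMIs, and cells under 2000 UMIs made up 10.1%, 3.49% and 30.8%. Levels are CPM, the UMIs of a gene summed over a class in 1 library, per 1000000 UMIs of that class. Since depths differed, shares of cells with a UMI are also given after each cell was thinned to 2000 UMIs. Intervals are 95% intervals, exact Poisson for CPM and exact conditional binomial for ratios, and cover counting error only. Summed levels cannot tell fewer expressing cells from less RNA per cell, which is why shares stand beside them.

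In ectoderm, 4 of the 7 genes were far higher at E10.5 than at E9.5, while Tfap2a and Tfap2c stayed near the same level. Tfap2b stood at 231 CPM in B6_E10.5 (219 to 243), 40.0 CPM in 129_E9.5 (35.2 to 45.3) and 17.4 CPM in B6_E9.5 (up to 20.1), from 1424, 253 and 187 UMIs. Bcl11b stood at 149.8, 40.8 and 11.4 CPM in the same libraries. The 3 libraries did not overlap in their counting intervals for either gene, and both E9.5 libraries lay far below B6_E10.5. Over B6_E9.5, B6_E10.5 was 13.3-fold higher for Tfap2b (11.4 to 15.5) and 13.2-fold higher for Bcl11b (10.9 to 16.1). Both genes were lower in Fgf8-positive cells, as given below. The part of the share of such cells in these ratios was not tested.

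Bcl11a was at 68.4 CPM in B6_E10.5, 19.6 CPM in 129_E9.5 and 6.70 CPM in B6_E9.5, a stage ratio of 10.2 (7.94 to 13.3). Nfib was at 59.3, 18.4 and 6.14 CPM, a stage ratio of 9.66 (7.42 to 12.8). Nfia was sparse in ectoderm, at 10.7, 3.95 and 2.42 CPM from 66, 25 and 26 UMIs, with a ratio of 4.42 (2.77 to 7.26). For all 5 of these genes B6_E10.5 was highest and 129_E9.5 lay between it and B6_E9.5, although for Nfia the intervals of the E9.5 libraries overlapped. Tfap2a was at 99.1 CPM in B6_E10.5 (91.4 to 107), 66.9 CPM in 129_E9.5 (60.7 to 73.6) and 88.9 CPM in B6_E9.5 (83.3 to 94.7), a stage ratio of 1.11. Tfap2c was at 18.2, 20.9 and 19.6 CPM, with a stage ratio of 0.925 whose interval, 0.729 to 1.17, includes 1.

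The share of ectodermal cells with a Tfap2b UMI was 52.7% in B6_E10.5 and 13.6% in 129_E9.5, with 111 of the 1009 cells of B6_E9.5, and the shares were 34.1%, 6.05% and 3.72% after thinning. For Bcl11b the shares were 51.9%, 17.4% and 10.8%, and 26.1%, 8.21% and 2.93% after thinning. Bcl11a had thinned shares of 13.3%, 3.98% and 1.69% and Nfib of 11.8%, 2.85% and 1.13%. At equal depth, then, more ectodermal cells of B6_E10.5 had a UMI of each of these 4 genes. For Tfap2a the raw shares were 40.8%, 26.5% and 52.8%, highest in the deep B6_E9.5 cells, and 19.8%, 12.7% and 16.0% after thinning. Erythroid cells of B6_E10.5 (median depth 14608 UMIs) had a UMI of Tfap2b in 0.998%, of Bcl11b in 1.75% and of Nfib in 3.24% of cells. Their Bcl11a share was 4.24%. Bcl11a also acts in erythroid cells, and how much of this share is stray RNA was not tested. The mesenchymal genes Prrx1 and Shox2 were at 22.9 and 17.0 CPM in the erythroid cells of B6_E10.5. The erythroid cells of B6_E9.5 had a median depth of 735 UMIs, too shallow for a comparison of shares.

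Among the 5 of these genes that reached 50 CPM and 20 UMIs in the higher library, 4 were at least 2-fold higher in the ectoderm of B6_E10.5 (Tfap2b, Bcl11a, Bcl11b and Nfib) and 0 at least 2-fold lower, where 2.38% of the 3275 genes tested were higher and 1.44% lower. The genes were chosen with this contrast known, so nothing is read from their count. Of the BCL11 partners and COUP-TF genes 10 passed the filter and 0 were past 2-fold, with a median ratio of 0.999, and of the TFAP2 partners 3 passed and 0 were past 2-fold, with a median of 1.16. Over all genes tested the median was 0.978. Of 8 ectodermal and epidermal factors 0 were higher and 2 lower, Msx2 at a ratio of 0.406 and Dlx5 at 0.440. The ratios of all 8 lay between 0.406 and 0.662, with a median of 0.525. Of 13 epidermal structure genes 2 were higher, the basal keratin genes Krt5 (4.04) and Krt14 (6.49). The NFI relatives Nfic and Nfix did not reach the filter.

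Ectodermal cells also held RNA of mesenchymal markers. The 11 limb mesenchyme markers summed to 562 CPM in the ectoderm of B6_E10.5, 538 CPM in 129_E9.5 and 670 CPM in B6_E9.5, with none of the 11 at 0, against 2215, 2034 and 2060 CPM in mesenchyme. Most of the ectodermal sum was Meis2 (261, 226 and 268 CPM, against 246, 229.6 and 321 CPM in mesenchyme) and Msx1 (111, 222 and 303 CPM, against 207, 333 and 313 CPM), so the sum is no measure of mesenchymal RNA. Prrx1 stood at 50.1, 8.86 and 15.4 CPM in ectoderm, or 9.82%, 2.24% and 3.41% of its mesenchymal level, Shox2 at 36.6, 5.06 and 4.09 CPM and Tbx5 at 10.4, 2.37 and 1.21 CPM, all highest in B6_E10.5. Ectodermal cells with no UMI of Prrx1, Prrx2 or Shox2, a restriction added after the data were seen, numbered 763, 1003 and 609 and gave stage ratios of 16.2 for Tfap2b, 12.9 for Bcl11b, 10.7 for Bcl11a, 9.05 for Nfib, 4.22 for Nfia, 1.25 for Tfap2a and 0.955 for Tfap2c. The 7 neural crest markers summed to 20.6, 17.2 and 21.2 CPM in ectoderm. Of these, Erbb3 was the highest, at 11.5 CPM in each library. Foxd3 and Fabp7 were at 0 in both E9.5 libraries and Sox10 was at 0.162, 0.633 and 1.21 CPM.

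**Figure D1:**
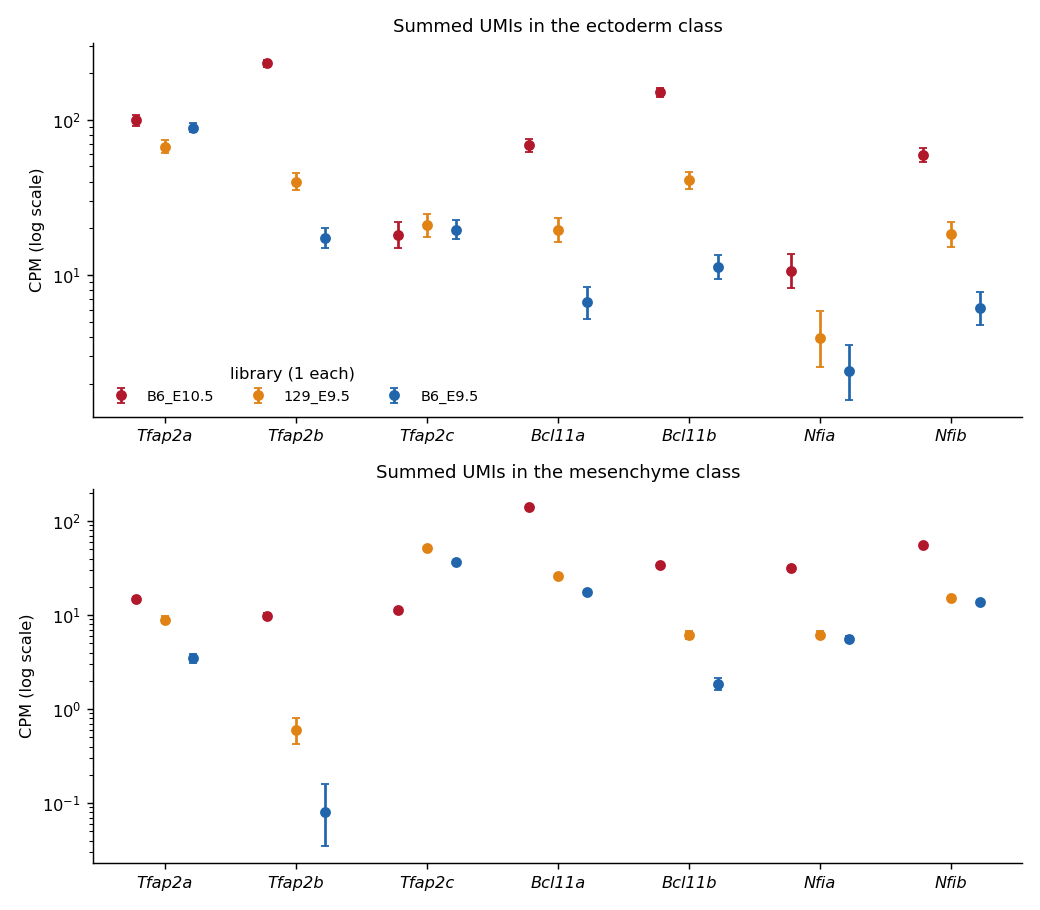
CPM of each gene (log scale) in the ectodermal class (top) and the mesenchymal class (bottom) of B6_E10.5, 129_E9.5 and B6_E9.5, 1 library each, with exact Poisson 95% intervals. In ectoderm B6_E10.5 is far above both E9.5 libraries for Tfap2b, Bcl11a, Bcl11b and Nfib, and the 3 libraries lie close together for Tfap2c, while in mesenchyme Tfap2c is lowest in B6_E10.5 at 11.3 CPM.

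In mesenchyme Tfap2c was lower at E10.5, and the other 6 genes, Tfap2a and Tfap2b among them, were higher. Tfap2c stood at 11.3 CPM in B6_E10.5 (10.6 to 12.0), 51.8 CPM in 129_E9.5 (50.2 to 53.5) and 36.8 CPM in B6_E9.5 (35.7 to 38.1), and was 3.25-fold lower in B6_E10.5 than in B6_E9.5. Its share of cells with a UMI was 1.81%, 8.20% and 6.30% after thinning. Both E9.5 libraries were therefore well above B6_E10.5 for this gene, in level and in share.

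Bcl11a was at 142.9 CPM in B6_E10.5, 26.0 CPM in 129_E9.5 and 17.8 CPM in B6_E9.5, with thinned shares of 24.0%, 5.22% and 3.54% of cells. Its stage ratio was 8.01 (7.62 to 8.42), and its level in mesenchyme was 209%, 133% and 266% of that in ectoderm. Bcl11b was at 33.9, 6.12 and 1.85 CPM, a ratio of 18.3 (15.8 to 21.4), and stayed at 22.6%, 14.995% and 16.3% of its ectodermal level. The 2 BCL11 genes thus differed in class, with Bcl11a higher in mesenchyme and Bcl11b higher in ectoderm in each library. Nfia was at 32.1, 6.22 and 5.59 CPM (ratio 5.75, 5.25 to 6.31) and Nfib at 55.5, 15.1 and 13.8 CPM (ratio 4.03, 3.79 to 4.28).

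Tfap2a was at 14.9, 8.95 and 3.46 CPM in mesenchyme, a stage ratio of 4.31 (3.82 to 4.86). Tfap2b was at 9.82, 0.598 and 0.0813 CPM from 891, 42 and 8 UMIs, a ratio of 121 that rests on the 8 UMIs of B6_E9.5 (61.1 to 281). Tfap2b was found in 2.69%, 0.390% and 0.0827% of mesenchymal cells. The 8 UMIs of B6_E9.5 lay in 8 cells. The Tfap2b ratio moved with the processing, between 19.8 as a mean of CPM over cells and 181 in cells of at most 5% mitochondrial UMIs, and was 47.3 among cells of at most 16000 UMIs, a limit added after the data were seen. For the other 6 genes that limit gave 4.20 (Tfap2a), 0.356 (Tfap2c), 6.96 (Bcl11a), 15.3 (Bcl11b), 3.73 (Nfia) and 3.36 (Nfib). Bcl11a and Nfib reached the filter in the mesenchyme and both were past 2-fold higher, where 4.57% of 3303 genes were higher and 2.66% lower.

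RNA of ectodermal markers was low in mesenchyme, where the 14 markers summed to 19.5, 17.7 and 29.2 CPM, against 3480, 3892 and 3520 CPM in ectoderm. Epcam in mesenchyme was at 0.731%, 0.289% and 0.539% of its ectodermal level, while Tfap2a was at 15.1%, 13.4% and 3.90% and Tfap2b at 4.25%, 1.49% and 0.467% of theirs. Of the BCL11 partners all 11 passed the filter in mesenchyme and 1 was past 2-fold, the COUP-TF gene Nr2f2 with a ratio of 0.467 (70.0 CPM in B6_E10.5, against 149.9 CPM in B6_E9.5).

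**Figure D2:**
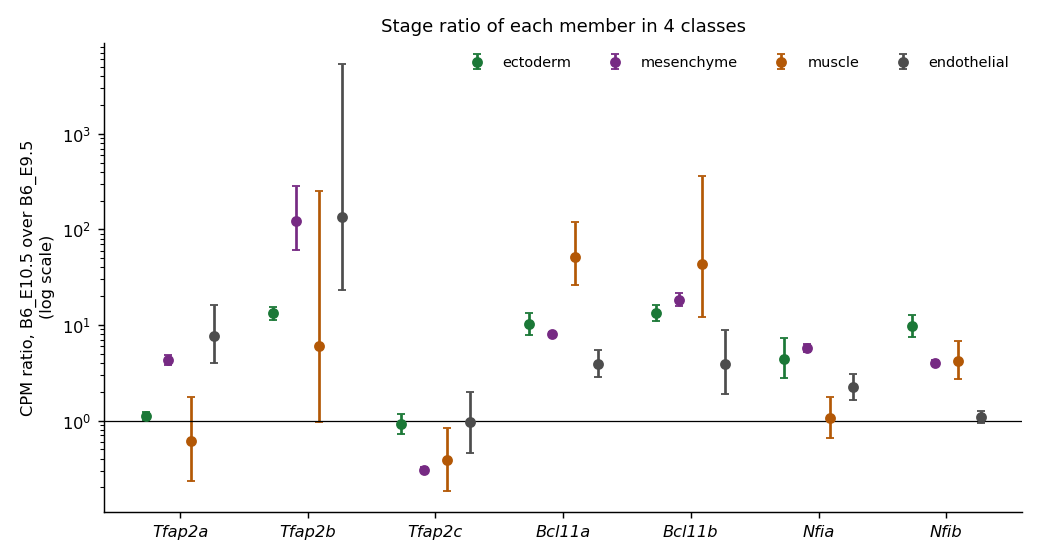
CPM ratio of B6_E10.5 over B6_E9.5 (log scale) of each gene in the ectodermal, mesenchymal, muscle and endothelial classes, 1 library per stage, with exact conditional binomial 95% intervals; the line marks a ratio of 1. Bcl11a and Bcl11b are above 1 in all 4 classes, with few UMIs in muscle for B6_E9.5, Tfap2c is at 0.307 in mesenchyme, and Nfib is at 1.10 in endothelium.

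In the muscle class Bcl11a was at 120.4 CPM in B6_E10.5, 10.3 CPM in 129_E9.5 and 2.33 CPM in B6_E9.5, from 1440, 52 and 8 UMIs, a stage ratio of 51.7 (26.1 to 119.9). Bcl11b was at 25.4, 4.97 and 0.583 CPM, from 304, 25 and 2 UMIs, and Nfib at 26.8, 11.7 and 6.41 CPM. Nfia stood at 7.11, 5.97 and 6.70 CPM, a ratio of 1.06 (0.663 to 1.76). Both Bcl11 genes were thus higher at E10.5 in the muscle class as well, while the Nfia values overlapped in counting error. The class also differed in its other markers, with endothelium markers at 2.84, 78.8 and 169.5 CPM and neuron markers at 52.5, 917 and 9.90 CPM, and their part in these values was not tested.

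In the endothelial class Nfib was at 61.4, 62.8 and 55.8 CPM, with a stage ratio of 1.10 (0.952 to 1.27). The counting intervals of the 3 libraries overlapped. Bcl11b was at 5.23, 10.0 and 1.33 CPM there, so that B6_E10.5 was above B6_E9.5 and below 129_E9.5. Macrophage markers in the class summed to 1460, 24.1 and 39.2 CPM and megakaryocyte markers to 1322, 276 and 224 CPM, and their part in these values was not tested. Tfap2b had 84 UMIs (16.3 CPM) in B6_E10.5, 127 UMIs (34.4 CPM) in 129_E9.5 and 1 UMI (0.121 CPM) in B6_E9.5. Endothelial cells with a UMI of at least 1 neural crest marker held 94.0% of the UMIs in B6_E10.5 and all of those in 129_E9.5, but such cells were 50.9% and 68.6% of the class, and the list member Ets1, also an endothelial gene, was at 133 and 146 CPM in it. With at least 2 such markers, a count chosen after the data were seen, the cells were 9.90% of the class in B6_E10.5 and 10.0% in 129_E9.5 and held 76.2% and 80.3% of the Tfap2b UMIs. There Tfap2b was at 94.7 and 319 CPM, against 4.46 and 7.40 CPM in the rest of the class. The same cells held 77.4% and 54.5% of the Tfap2a UMIs.

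A like pattern was found in the muscle class of 129_E9.5. Its cells with a UMI of at least 1 neuron marker, 17.6% of the class, held 81.1% of the 37 Tfap2a UMIs and 89.7% of the 39 Tfap2b UMIs. Bcl11a UMIs in the endothelial class of B6_E10.5 were at 43.3 CPM in cells with a macrophage marker UMI, which were 28.6% of the class and held 49.3% of them. Levels in the remaining cells are not given for these splits. Deeper cells hold more UMIs of any gene, and the part of depth in these shares was not tested.

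Between strains at E9.5, the ratio of 129_E9.5 over B6_E9.5 in ectoderm was 3.59 for Bcl11b (2.89 to 4.50), 2.99 for Nfib (2.19 to 4.11), 2.93 for Bcl11a (2.17 to 3.97), 2.30 for Tfap2b (1.90 to 2.79) and 1.63 for Nfia (0.905 to 2.94). Tfap2c was at 1.06 (0.849 to 1.33) and Tfap2a at 0.753 (0.670 to 0.845). Of the 7 genes 1 (Tfap2a) reached the filter and 0 were past 2-fold under it, where 1.56% of 3330 genes were higher and 2.58% lower. In mesenchyme the ratios were 3.31 for Bcl11b (2.78 to 3.96), 2.58 for Tfap2a (2.26 to 2.96), 1.46 for Bcl11a (1.37 to 1.56) and 1.41 for Tfap2c (1.34 to 1.47), and for Nfia and Nfib they were 1.11 and 1.10. Tfap2b had a ratio of 7.36 (3.41 to 18.1), from 42 against 8 UMIs, which was 1.53 as a mean of CPM over cells and 2.73 among cells of at most 16000 UMIs. Nfia and Nfib were below 1 among cells of at most 16000 UMIs, at 0.725 and 0.917. In mesenchyme, too, 1 of the 7 genes (Tfap2c) reached the filter and 0 were past 2-fold under it, where 2.44% of 3282 genes were higher and 3.53% lower. Stage and strain ratios share B6_E9.5 as the library below the line, so values common to both rest on the same counts.

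Within the ectoderm, cells were set apart by a UMI of Wnt7a, En1 or Fgf8. Tfap2b was scarce in Fgf8-positive cells in every library. It was at 38.2 CPM in the 251 Fgf8-positive cells and 294 CPM in the 775 Fgf8-negative cells of B6_E10.5. The same cells had 3.63 and 63.5 CPM in 129_E9.5 and 4.36 and 31.1 CPM in B6_E9.5. The ratios were 0.130 (0.0981 to 0.169), 0.0571 (0.0258 to 0.110) and 0.140 (0.0872 to 0.216). Of Fgf8-positive cells 8.37% had a Tfap2b UMI in B6_E10.5, against 67.1% of Fgf8-negative cells, and after thinning the shares were 2.36% and 43.7%. Both kinds of cell had similar depths in B6_E10.5, with medians of 5598 and 5805 UMIs.

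Tfap2c was the TFAP2 gene that went the other way, at 30.9 CPM in Fgf8-positive and 14.0 CPM in Fgf8-negative cells of B6_E10.5, 25.8 against 17.7 CPM in 129_E9.5, and 26.1 against 12.8 CPM in B6_E9.5. Tfap2a had ratios of 0.606, 0.524 and 0.677 in the 3 libraries. The BCL11 genes also parted, with Bcl11a at 1.38, 1.71 and 1.58 and Bcl11b at 0.409, 0.683 and 0.556. Nfia had ratios of 0.197, 0.135 and 0.285 from only 4, 2 and 6 UMIs in Fgf8-positive cells, and Nfib was at 0.997, 0.784 and 0.543. Of the 7 genes Tfap2b and Nfia were at least 1.5-fold lower in all 3 libraries and 0 were at least 1.5-fold higher in all 3, where 2.19% of 9706 genes were lower and 2.66% higher. Their median ratio over libraries was 0.599, against 0.967 over all genes tested. In the lists, 5 of 19 epidermal factors were higher (Msx2, Trp63, Dlx5, Dlx6 and Klf4), 3 of 18 structure genes were lower (Krt8, Krt19 and Krt15), and 2 of 8 TFAP2 partners were higher, the coactivator genes Cited2 and Cited4.

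**Figure D3:**
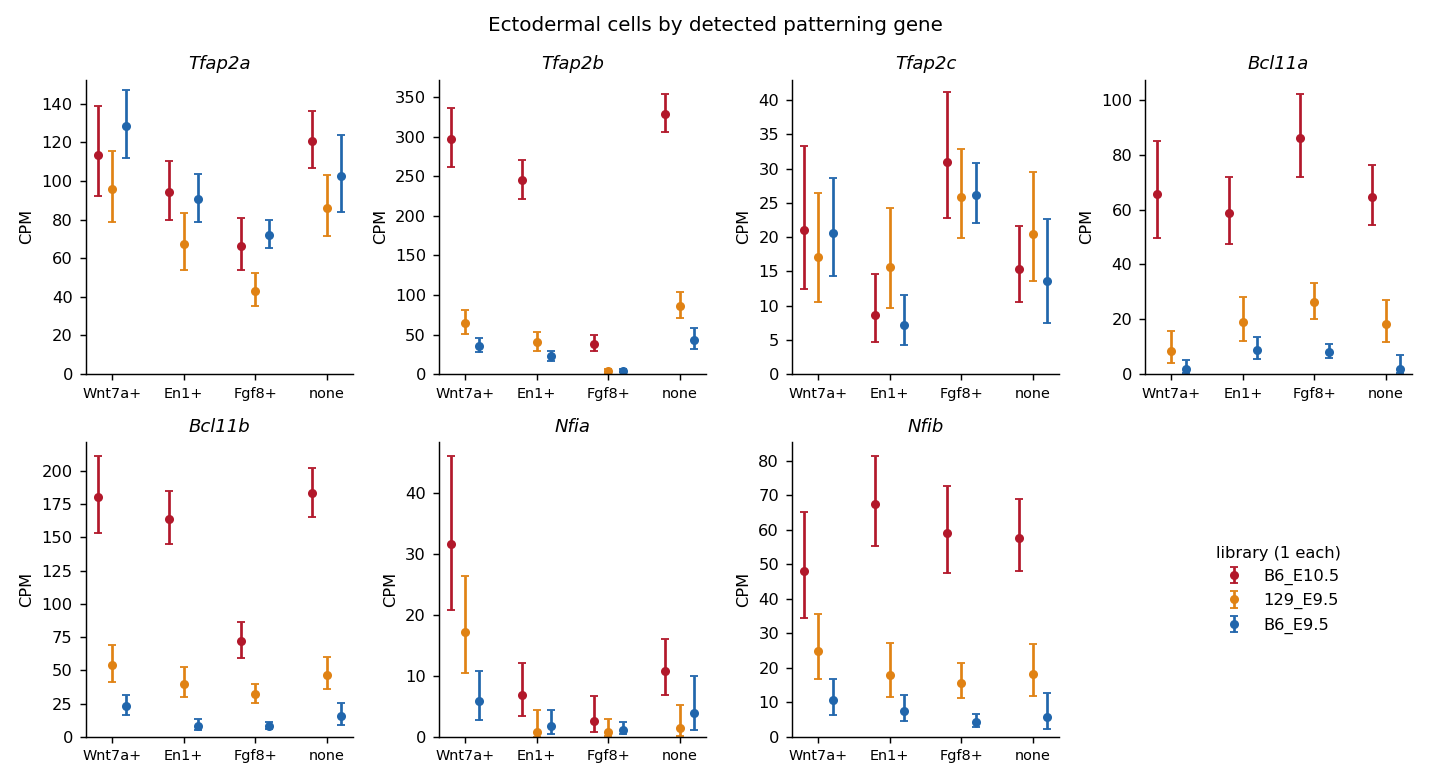
CPM of each gene in ectodermal cells with a Wnt7a UMI only, an En1 UMI only, an Fgf8 UMI with or without the others, or none of these, in B6_E10.5, 129_E9.5 and B6_E9.5 (1 library each), with exact Poisson 95% intervals and axes that start at 0. Tfap2b in Fgf8-positive cells is at 38.2, 3.63 and 4.36 CPM, below the other 3 states of its library.

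Among cells without an Fgf8 UMI, Tfap2b was at 297 CPM in Wnt7a-positive cells, 245 CPM in En1-positive cells and 329 CPM in cells with none of these in B6_E10.5. The same states had 64.2, 40.0 and 86.2 CPM in 129_E9.5 and 36.0, 22.9 and 43.5 CPM in B6_E9.5. Both faces of the bud thus held Tfap2b, with the ventral En1-positive cells lowest of these 3 states in each library, and each state was higher at E10.5 than at E9.5. Bcl11b in the same 3 states was at 180.3, 164 and 183 CPM in B6_E10.5 and, for 129_E9.5, at 53.9, 40.0 and 46.8 CPM. In B6_E9.5 these states had 23.0, 8.47 and 15.5 CPM. Bcl11a was at 86.2 CPM in Fgf8-positive cells of B6_E10.5, above the 65.6, 58.8 and 64.8 CPM of the 3 other states.

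Nfia was higher in Wnt7a-positive than in Wnt7a-negative ectodermal cells, at 29.3 and 7.15 CPM in B6_E10.5, 14.2 against 0.826 CPM in 129_E9.5, and 4.76 against 1.45 CPM in B6_E9.5. The ratios were 4.10 (2.43 to 6.86), 17.2 (5.79 to 68.7) and 3.28 (1.41 to 7.90), from 29 against 37, 21 against 4 and 15 against 11 UMIs. It was the only one of the 7 that was at least 1.5-fold higher in every library, where 0.433% of 9706 genes were, and 0 of the 7 were at least 1.5-fold lower in every library, where 2.03% of genes were. Wnt7a-positive cells were deeper (medians of 8044, 6449 and 13181.5 UMIs, against 5515, 4426 and 9541 UMIs). After thinning, which left 45, 100 and 81 Wnt7a-positive cells, an Nfia UMI was found in 8.89% against 1.85% of the cells of B6_E10.5, in 6 cells against 0.378% in 129_E9.5, and in 0 cells against 0.620% in B6_E9.5. Bcl11b had ratios of 1.17, 1.52 and 2.33 and Tfap2b of 1.22, 1.54 and 1.41. After thinning, however, 28.9% of Wnt7a-positive and 34.4% of Wnt7a-negative cells of B6_E10.5 had a Tfap2b UMI. Of 19 epidermal factors 8 were lower, Msx2, Dlx5, Tbx3 and Gata3 among them.

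In the En1 split the members' median ratio was 0.757, against 1.00 over all genes tested. Tfap2b was at 179.7 CPM in En1-positive and 263 CPM in En1-negative cells of B6_E10.5, 27.7 against 45.4 CPM in 129_E9.5, and 14.5 against 19.8 CPM in B6_E9.5, and its thinned shares were 31.5% and 34.6%, 5.78% and 6.10%, and 4.58% and 3.54% of cells. Nfia had ratios of 0.429, 0.0958 and 0.359 from 14, 1 and 6 UMIs in En1-positive cells and was the only one of the 7 at least 1.5-fold lower in every library, where 0.392% of genes were, and 0 of the 7 were 1.5-fold higher, where 0.319% of genes were. Its geometric mean ratio was 0.245. After thinning 0, 0 and 1 Nfia UMIs were left in En1-positive cells, so that the value of 1.14 computed there rests on the limit of 3 counts and gives no direction. Bcl11a was at 0.945, 1.18 and 1.20 and Nfib at 1.11, 0.993 and 0.684, on both sides of 1.

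UMIs of Tfap2b and Bcl11b were found in the same ectodermal cells with odds above 1. The odds ratio was 2.60 in B6_E10.5 (2.01 to 3.38, 341 cells with both), 1.81 in 129_E9.5 (1.21 to 2.67) and 2.15 in B6_E9.5 (1.21 to 3.69). After thinning it was 1.34 (0.974 to 1.84), 0.852 and 1.04, each closer to 1. Tfap2a and Tfap2b had odds ratios of 2.13, 2.17 and 2.80, and of 1.67, 1.30 and 1.72 after thinning.

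The genes were not chosen on 4 further splits, of ectodermal cells by Krt14, a keratin of basal epidermis, and of mesenchymal cells by Sox9, the factor of cartilage precursors, Lmx1b, the factor of dorsal mesenchyme, and Meis2, a factor of the proximal limb. In each library UMIs were summed over cells with and without a UMI of the split gene and tested with edgeR's quasi-likelihood test, with the library as a block and Benjamini-Hochberg adjustment over all genes. The test covers the spread of the difference over 3 libraries that are of different stage or strain. The Krt14 split shares genes with the Fgf8 split, which the choice of genes used, as given below. Cells with a UMI of the split gene were deeper in each library, apart from the Meis2 split of B6_E10.5, by the most in B6_E9.5.

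Tfap2b rose in Krt14-positive ectoderm. It was at 278 CPM in Krt14-positive and 186 CPM in Krt14-negative cells of B6_E10.5, 57.5 against 35.0 CPM in 129_E9.5, and 32.6 against 12.5 CPM in B6_E9.5. The log2 fold change was 0.74 ± 0.11 (SE, 3 libraries) with an edgeR adjusted p of 7.86e-05, and it was higher in 3 of 3 libraries. Of the 7 genes 1 rose and 0 fell, where 2.35% of 10193 genes rose and 3.35% fell. Tfap2a (0.28 ± 0.09, adjusted p = 0.0626) and Bcl11b (0.29 ± 0.10, adjusted p = 0.0862) had positive values that did not pass. Bcl11a was at -0.31 (adjusted p = 0.214), Nfia at 0.51 (0.394), Tfap2c at -0.16 (0.668) and Nfib at 0.05 (0.915).

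The Tfap2b call held without each library in turn (adjusted p between 2.94e-07 and 2.39e-04), and with cells thinned to 2000 UMIs it was at 0.42 and did not pass (adjusted p = 0.566). Thinning left 45 Krt14-positive cells in B6_E9.5. Tfap2a passed without B6_E9.5 (adjusted p = 0.00783), and with thinned cells it was at -0.22 (adjusted p = 0.912). Mesenchymal markers summed to 495 CPM in Krt14-positive and 626 CPM in Krt14-negative cells of B6_E10.5, 438 against 566 CPM in 129_E9.5, and 620.2 against 687 CPM in B6_E9.5. As given above, most of this sum in ectoderm was Meis2 and Msx1, so it is no measure of mesenchymal RNA. The sum of ectodermal markers was also lower in Krt14-positive cells, at 2609 against 4018, 3098 against 4057 and 3316 against 3556 CPM. That sum includes Fgf8. Of its other markers in the lists, Trp63 and Sp8 fell. Epcam (-0.12), Perp (-0.15), Cldn6 (0.10), Cdh1 (0.12), Krt8 (0.29), Krt18 (0.22), Krt5 (-0.27) and Sp6 (-0.33) did not pass. The lower sum is thus no measure of ectodermal RNA at large, and the part of both sums in these values was not tested. Of 18 epidermal structure genes 4 rose, the keratin genes Krt15 (1.06), Krt19 (0.85) and Krt17 (0.69) and the adhesion gene Fermt1 (0.24). Of 20 epidermal factors 8 fell, among them Trp63 (-0.28), the master factor of stratified epithelia, Sp8 (-0.40) and Msx2 (-0.48). All 5 factors that were higher in Fgf8-positive cells fell here, Dlx6 (-1.95), Klf4 (-1.59) and Dlx5 (-1.04) with Trp63 and Msx2. Krt15 and Krt19, lower in Fgf8-positive cells, rose, while Krt8 did not pass (0.29). The Krt14 split thus overlaps the Fgf8 split, in which Tfap2b was low in Fgf8-positive cells. The part of this overlap in the Tfap2b value was not tested. The TFAP2 coactivator Cited2 fell (-0.42), as 1 of 8 TFAP2 partners. The median log2 fold change was 0.28 over the 7 genes, 0.05 over the structure genes, -0.30 over the epidermal factors and 0.00 over all genes.

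**Figure D4:**
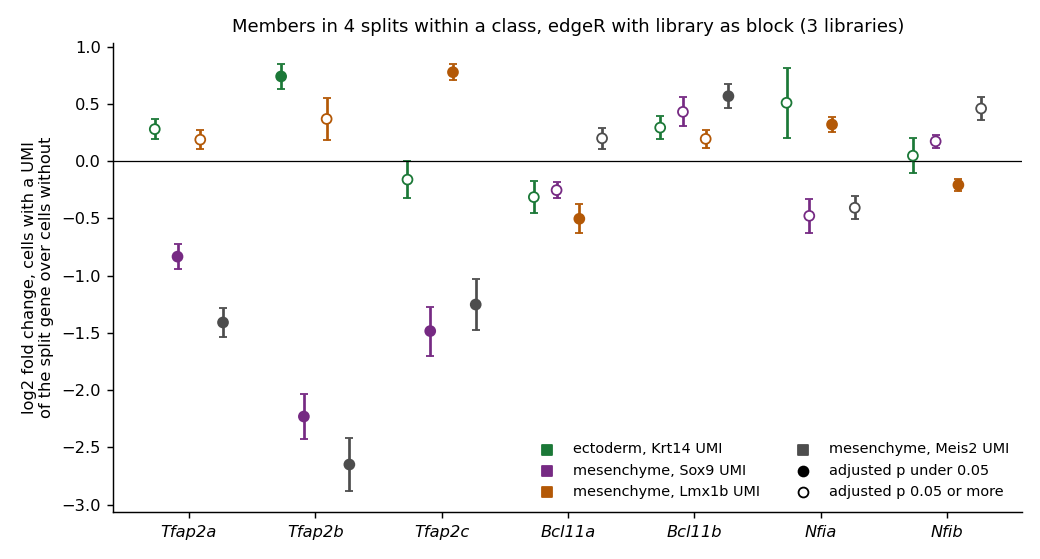
log2 fold change of each gene between cells with and without a UMI of Krt14 in ectoderm and of Sox9, Lmx1b or Meis2 in mesenchyme, from edgeR with the library as a block (3 libraries), with bars of 1 SE. Filled points had an adjusted p under 0.05: the 3 TFAP2 genes lie between -0.83 and -2.65 in the Sox9 and Meis2 splits, and Tfap2c is at 0.78 in the Lmx1b split.

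All 3 TFAP2 genes fell in Sox9-positive mesenchyme, while the BCL11 and NFI genes did not pass. Tfap2c was at 3.30 CPM in Sox9-positive and 18.9 CPM in Sox9-negative cells of B6_E10.5, 22.9 against 57.6 CPM in 129_E9.5, and 21.97 against 40.4 CPM in B6_E9.5, a log2 fold change of -1.48 ± 0.21 (adjusted p = 0.00703). Tfap2a was at 11.04 and 18.6, 5.95 and 9.56, and 1.63 and 3.91 CPM, a log2 fold change of -0.83 ± 0.11 (adjusted p = 0.00517). Tfap2b was at 3.35 and 16.0 CPM in B6_E10.5, 0.255 against 0.667 CPM in 129_E9.5, and 0 against 0.101 CPM in B6_E9.5, where all of its 8 UMIs were in Sox9-negative cells, with a log2 fold change of -2.23 ± 0.19 (adjusted p = 0.000732). Tfap2a and Tfap2c were lower in 3 of 3 libraries and their calls held without each library in turn. Tfap2b was lower in B6_E10.5. In 129_E9.5 its lower value rests on only 3 UMIs in Sox9-positive cells, against 39 UMIs. B6_E9.5 had too few Tfap2b UMIs for a direction. Tfap2b was too low to be tested without B6_E10.5 or with thinned cells.

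Of the 7 genes 3 fell and 0 rose in the Sox9 split, where 2.31% of 12752 genes fell and 2.13% rose. Bcl11a was at -0.25 (adjusted p = 0.0729), Bcl11b at 0.43 (0.0864), Nfia at -0.48 (0.0970) and Nfib at 0.17 (0.111). Without B6_E10.5, Bcl11a (-0.34) and Bcl11b (0.72) passed, and without B6_E9.5 Nfia did (-0.68). With thinned cells Tfap2a was at -0.54 and did not pass (adjusted p = 0.144), while Nfia passed (adjusted p = 0.0140). Of 11 BCL11 partners and COUP-TF genes 2 rose, the COUP-TF gene Nr2f1 (0.90) and the LIM protein gene Lmo4 (0.32). Of 16 epidermal factors 4 fell, Dlx5 (-1.30), Msx2 (-0.85), Tbx3 (-0.54) and Id3 (-0.21), genes that are themselves expressed in limb mesenchyme. Median log2 fold changes were -0.48 over the 7 genes and 0.00 over all genes.

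In Meis2-positive mesenchyme the 3 TFAP2 genes fell and Bcl11b rose. Tfap2a was at 7.15 CPM in Meis2-positive and 22.4 CPM in Meis2-negative cells of B6_E10.5, 6.44 against 14.6 CPM in 129_E9.5, and 3.20 against 6.80 CPM in B6_E9.5 (log2 fold change -1.41 ± 0.13, adjusted p = 0.00113). Tfap2b was at 2.405 and 17.0, 0.308 and 1.255, and 0.0658 and 0.278 CPM (-2.65 ± 0.23, adjusted p = 0.00106). Tfap2c was at 3.93 and 18.4, 41.0 and 76.4, and 35.3 and 56.7 CPM (-1.25 ± 0.22, adjusted p = 0.0240). Tfap2a and Tfap2c were lower in Meis2-positive cells in 3 of 3 libraries. Tfap2b was lower in B6_E10.5 and 129_E9.5, while in B6_E9.5 it rests on 6 UMIs in Meis2-positive and 2 UMIs in Meis2-negative cells, which give no direction.

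Bcl11b was at 41.3 CPM in Meis2-positive and 26.8 CPM in Meis2-negative cells of B6_E10.5, 6.89 against 4.37 CPM in 129_E9.5, and 1.87 against 1.53 CPM in B6_E9.5, a log2 fold change of 0.57 ± 0.10 (adjusted p = 0.0270). That call was lost without B6_E10.5 (adjusted p = 0.299) or without 129_E9.5 (adjusted p = 0.178), while the 3 TFAP2 calls held without each library. For Tfap2b, the call without B6_E10.5 (edgeR adjusted p = 0.0427) rests on few UMIs. These were 15 in Meis2-positive and 27 in Meis2-negative cells of 129_E9.5, and 6 and 2 in B6_E9.5. Nfib had 69.0 and 42.5, 15.9 and 13.3, and 14.1 and 9.72 CPM (0.46 ± 0.10, adjusted p = 0.0521), Nfia was at -0.41 (0.0804) and Bcl11a at 0.20 (0.311), and Nfib passed without B6_E9.5. Of the 7 genes 1 rose and 3 fell, where 1.69% of 12778 genes rose and 0.603% fell. In DESeq2, for the Meis2 split, Tfap2c (-1.33, adjusted p = 0.0878) and Bcl11b (0.55, 0.0842) did not pass and Nfib did (0.45, 0.0369). In B6_E9.5 the median depth was 14640 UMIs in Meis2-positive and 1019 UMIs in Meis2-negative cells, and their ectodermal markers summed to 25.9 and 71.2 CPM. The part of these in the result was not tested. With thinned cells Tfap2a and Tfap2c still passed (adjusted p = 0.00141 and 0.00679), Bcl11b did not (0.127), and Tfap2b was too low to be tested. Of the 11 BCL11 partners and COUP-TF genes 2 rose, the COUP-TF genes Nr2f1 (1.79) and Nr2f2 (0.55). Median log2 fold changes were -0.41 over the 7 genes and -0.01 over all genes.

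**Figure D5:**
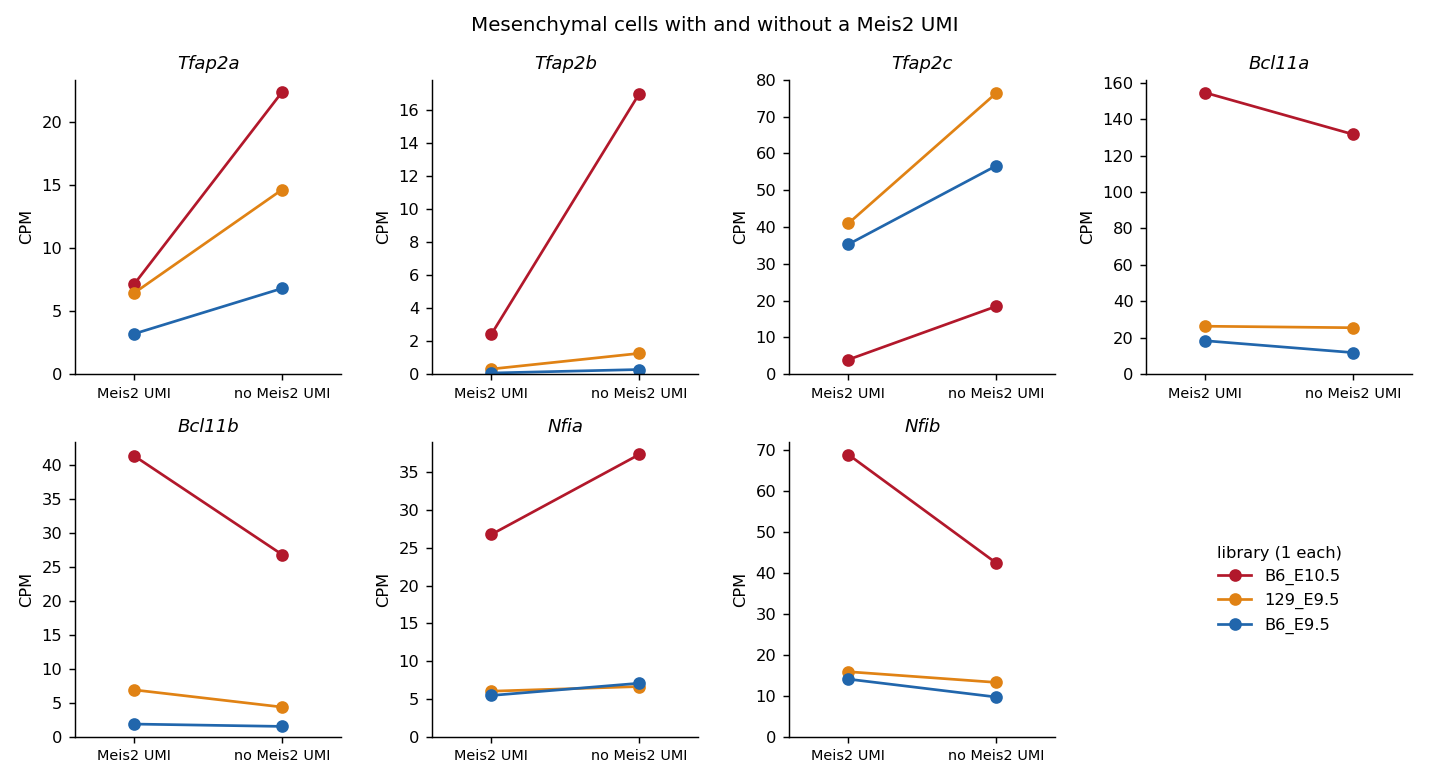
CPM of each gene in mesenchymal cells with (left) and without (right) a Meis2 UMI, 1 line per library for B6_E10.5, 129_E9.5 and B6_E9.5, axes from 0. Tfap2a and Tfap2c are lower in Meis2-positive cells of all 3 libraries, Tfap2b is lower in B6_E10.5 and 129_E9.5 and close to 0 in B6_E9.5, and Bcl11b and Nfib are higher in all 3.

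In Lmx1b-positive mesenchyme Tfap2c rose. It was at 17.9 CPM in Lmx1b-positive and 10.3 CPM in Lmx1b-negative cells of B6_E10.5, 66.8 against 45.5 CPM in 129_E9.5, and 48.8 against 24.7 CPM in B6_E9.5 (log2 fold change 0.78 ± 0.07, adjusted p = 1.07e-04). Nfia also rose, at 38.2 and 31.2, 7.20 and 5.81, and 6.35 and 4.81 CPM (0.32 ± 0.06, adjusted p = 0.0148). Bcl11a fell, at 135 and 144 CPM in B6_E10.5, 20.0 against 28.6 CPM in 129_E9.5, and 11.4 against 24.4 CPM in B6_E9.5 (-0.50 ± 0.13, adjusted p = 0.0404), and Nfib fell by 0.21 ± 0.05 on the log2 scale (adjusted p = 0.0356).

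Of the 7 genes 2 rose and 2 fell in the Lmx1b split, where 2.67% of 12808 genes rose and 2.94% fell. Only the Tfap2c call held without 129_E9.5 (adjusted p = 0.00329), with those of Bcl11a (-0.54, adjusted p = 0.313), Nfia (0.31, 0.152) and Nfib (-0.19, 0.259) lost there at log2 fold changes close to those above, and Bcl11a was at -0.24 without B6_E9.5. In DESeq2, too, only Tfap2c passed (adjusted p = 2.28e-13). Tfap2a (0.19, adjusted p = 0.242), Tfap2b (0.37, 0.303) and Bcl11b (0.19, 0.201) did not pass, although Bcl11b did without B6_E9.5 (0.24). With thinned cells Tfap2c was at 0.31 and none of the 7 passed. The ectodermal markers were lower in the Lmx1b-positive cells of each library, at 16.7 against 19.9, 10.3 against 20.8 and 15.01 against 43.7 CPM, and their part in these results was not tested. Of 16 epidermal structure genes 4 fell (Krt8, Krt18, Dsp and Jup) and of 15 epidermal factors 4 fell (Gata3, Sp6, Sp8 and Id3).

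Over the 15 sums of a class in a library, the genes most like each member were named by Pearson correlation of log2(CPM + 1), among genes with at least 200 UMIs. The points share libraries and depth, so the values are descriptions. They were Samd5 (0.95), Efcab1 (0.94) and Stard10 (0.94) for Tfap2a, Rab11fip5 (0.95), Commd3 (0.89) and Slc16a7 (0.88) for Tfap2b, and Crabp1 (0.94), Alcam (0.93) and Msx1 (0.93) for Tfap2c. For Bcl11a they were Tcf7l2 (0.95), Rasl11b (0.94) and Gli1 (0.93), for Bcl11b Zfr2 (0.96), Calml4 (0.93) and Pnck (0.93), for Nfia Polr3gl (0.95), Ppm1h (0.93) and Mynn (0.92), and for Nfib Tmem134 (0.95) and Nckipsd (0.95). Among the 7 genes the highest values were those of Nfia and Nfib (0.855), Tfap2b and Bcl11b (0.836) and Tfap2a and Tfap2b (0.834), and the lowest was that of Tfap2b and Tfap2c (0.268).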

How the data were processed

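Forelimb bud cells of 3 libraries were profiled with 10x 3′ chemistry, per the labels, and 3′ reads do not separate isoforms. The authors deposited raw UMI counts per gene and cell as 1 matrix with no normalization, and a table with each cell's stage, strain and cluster, per the file headers. Cell Ranger 3 and mm10 are named by the submitters' processing notes. For clustering method, cell filters and annotation release nothing is given in the sources used here. In all there were 15122 genes (15119 matched to a symbol by identifier) and 43950 cells of at least 501 UMIs, of which 1728 had a barcode that another library also held and were told apart by library. No further cell filter and no doublet caller was applied, and each library held more cells than the target of 10000, so doublets may remain. The values of the mesenchymal markers in ectoderm are given for that reason.

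UMIs were summed by class and library. With 1 library per group, stage and strain got ratios and no test, a gene being called past 2-fold where its higher value reached 50 CPM and 20 UMIs. The Wnt7a, En1 and Fgf8 splits called genes past 1.5-fold in all 3 libraries with at least 20 UMIs in each. The other 4 splits were tested with edgeR 4.0.16 in R 4.3.3 (filterByExpr, TMM, quasi-likelihood, library block, adjusted p under 0.05), with log2 fold change and SE from the fit, and DESeq2 1.42.0 as an alternative. Each library gives both sides of a split, so the block pairs cells of 1 reaction. The edgeR step was tested on simulated counts. For counts of 0 the limit was taken as 3 counts. Python 3.11.15, numpy 2.4.6, scipy 1.17.1 and pandas 2.3.3 were used.

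The genes named were the 7 members, the split genes, of each list the called members (up to 4 with most UMIs), and the 3 genes of most like pattern per member, 1 of which is not reported here. The members, lists and markers were chosen with earlier results of these data known. Tfap2d, Tfap2e, Foxi3 and Ehf of the lists were not analysed here. Alternatives were TMM scaling, cells of at least 2000 UMIs, cells of at most 5% mitochondrial UMIs, means over cells, other filters, thinning to 2000 or 1000 UMIs, RLE factors, no block and leaving out each library. Cells without Prrx1, Prrx2 or Shox2 UMIs, cells of at most 16000 UMIs and 2 or more markers within a class were added after the data were seen.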

Additional observations from a re-analysis of the deposited data

Results flagged for a closer look

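The strain ratio of Tfap2a lay on different sides of 1 by class: 129_E9.5 over B6_E9.5 was 2.58 in mesenchyme, 3.61 in muscle and 4.46 in endothelium, against 0.753 in ectoderm. The mesenchymal ratio rests on 8.95 and 3.46 CPM, and the muscle and endothelial ratios on 37 against 7 and 22 against 11 UMIs. In 129_E9.5, 81.1% of the muscle UMIs lay in cells with a neuron marker UMI and 54.5% of the endothelial UMIs in cells with at least 2 neural crest markers, and neuron markers in the muscle class summed to 917 CPM in 129_E9.5, against 9.90 CPM in B6_E9.5. The strain ratio of Tfap2c was 1.41 in mesenchyme and 0.114 in erythroid cells, the second from 4 UMIs in 129_E9.5 and 16 in B6_E9.5, whose erythroid cells had medians of 12004 and 735 UMIs. Each rests on 1 library per strain, and the difference between classes was not tested.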

How the results depend on the processing

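Without the 50 CPM minimum (20 UMIs only), 676 genes were higher and 391 lower by stage in ectoderm (main 78 and 47), and 383 and 604 by strain (52 and 86). With thinned cells the splits gave 78 higher and 104 lower for Wnt7a (42 and 197), 17 higher for En1 (31), and 121 and 115 for Fgf8 (258 and 213). At 50 UMIs they gave 19 and 108, 16 and 16 (main 31 and 38), and 163 and 119. Nfia in the En1 split turned to 1.14 with thinned cells, where 2 libraries had 0 UMIs in En1-positive cells and were set at the limit of 3 counts. DESeq2 called 60 higher and 73 lower for Krt14 (240 and 341), 161 higher for Sox9 (272), 143 and 123 for Lmx1b (342 and 377), and 194 higher and 122 lower for Meis2 (216 and 77). With thinned cells 7 and 21 were called for Krt14, 34 and 40 for Lmx1b and 165 lower for Meis2, and with no filter on low counts 392 and 188 for Meis2. Without one library in turn, Krt14 gave 155 to 211 higher and 232 to 372 lower, Sox9 62 to 498 and 74 to 793, Lmx1b 39 to 759 and 30 to 846, and Meis2 107 to 410 and 37 to 167. The lowest Sox9, Lmx1b and Meis2 counts were those without 129_E9.5. With no replicate block edgeR called 0 higher and 0 lower in all 4 splits, with 246, 58, 71 and 148 genes under an unadjusted p of 0.05 (main 1917, 2945, 2525 and 2208) for Krt14, Sox9, Lmx1b and Meis2, so every call rests on the pairing of cells within a library. Of the member values, 387 kept their call status or side or stayed within their interval, 35 moved, 29 lost and 12 gained their call, and 1 turned. In the tested splits a change of sign without a call in either fit is among the 387. Tfap2a in the Krt14 split (0.28, and -0.22 with thinned cells) is such a value. Depth limits the low members most: Nfia in ectoderm rests on 66, 25 and 26 UMIs.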

Other observations

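In mesenchyme at E10.5, the Tfap2b UMIs were concentrated in cells of the distal and posterior limb. These splits were chosen after the data were seen and carry no test. The 1331 cells with a UMI of Hoxd13, a gene of the distal and posterior bud, were at 64.8 CPM of Tfap2b and the other 13994 cells at 2.12 CPM, a ratio of 30.5 (25.8 to 36.3), and they held 722 of the 891 Tfap2b UMIs. Cells with a UMI of Shh, the posterior signal, numbered 134 and were at 117 CPM, against 8.48 CPM in the rest (ratio 13.8), and 460 cells with a Hoxa13 UMI were at 86.9 CPM, against 6.18 CPM (14.1). Tfap2c was at 37.0 CPM in Hoxd13-positive and 7.73 CPM in Hoxd13-negative cells (4.79), and at 78.7 against 10.48 CPM by Shh (7.51). Tfap2a had a Hoxd13 ratio of 1.79 and Nfia of 1.71, while Bcl11a (0.991), Bcl11b (0.787) and Nfib (0.719) were near or below 1. The Hoxd13-positive cells were deeper, with a median of 8220 UMIs, against 5235.5 UMIs.

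Read the other way, the 190 mesenchymal cells of B6_E10.5 with at least 2 Tfap2b UMIs were at 57.5 CPM of Shh and the other cells at 2.07 CPM (27.8), at 414 against 23.6 CPM of Hoxd13 (17.5) and at 354 against 28.2 CPM of Lmo2 (12.6). They were at 27.9 against 250.2 CPM of Meis2 (0.112) and at 3.83 against 2.76 CPM of the ectodermal gene Epcam. The neural crest gene Sox10 was at 0 against 0.304 CPM, a level too low for the 0 in 190 cells to give a direction. The Hoxd13 split at E9.5 had Tfap2c at 79.1 against 49.3 CPM in 129_E9.5 and 45.3 against 35.9 CPM in B6_E9.5. Unlike at E10.5, Nfia had ratios of 0.723 and 0.618 in these libraries and Tfap2a of 0.686 and 1.07. Bcl11a was at 0.889 and 0.789, Bcl11b at 1.19 and 0.623 and Nfib at 0.981 and 0.842. Tfap2b had only 8 and 2 UMIs in the Hoxd13-positive cells of the E9.5 libraries. There, too, Hoxd13-positive cells were deeper, with medians of 8466.5 against 7368 UMIs in 129_E9.5 and 18937 against 7513 UMIs in B6_E9.5.

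By the homeobox gene Emx2, chosen in the same way, Tfap2c had ratios of 0.216, 0.280 and 0.278 in the 3 libraries. Those of Bcl11b were 1.73, 2.91 and 1.68, and those of Nfib 2.03, 1.43 and 0.983. In B6_E9.5 the Emx2-positive cells had a median of 16823 UMIs, against 7702 UMIs, and held only 23 Bcl11b UMIs. The 438 cells with at least 2 Bcl11b UMIs at E10.5 were at 101 CPM of Pax1, against 32.7 CPM in the rest (3.10).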
